A study of Mus musculus with 3 samples.

Results

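The PTH receptor and Indian hedgehog loop was followed in single cells of healing mouse bone as 9 genes of the 32285 in the count matrices. They are the receptor Pth1r, its local ligand Pthlh, the signal Ihh, the hedgehog receptor Ptch1, the transducer Smo, the transcription factors Gli1, Gli2 and Gli3, and the secreted decoy Hhip. The genes are the named parts of a known pathway, taken by name with no threshold on a measured value. Each was found once in the matrices. The samples were fracture callus, the repair tissue around a broken bone, of female C3H/HeJ mice aged 9 weeks with a pinned femoral shaft, collected 7 days after surgery. This strain is described by the submitters as slow to heal. Mice of the control group were injected daily under the skin with vehicle (PBS). Mice of the PTH group were given PTH 1-34, an active fragment of parathyroid hormone, at 100 μg/kg. Those of the YKL group were given YKL-05-099, an inhibitor of salt-inducible kinases, at 15 mg/kg. Each group is 1 library. The labels do not say how many mice went into it. A difference between libraries therefore has no replicate check. No test, p-value or standard error between groups was computed, and each interval below covers counting error only.

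Indian hedgehog (Ihh) is secreted by cartilage cells that have begun to enlarge. In the growth plate it drives division of younger chondrocytes and induces parathyroid hormone-related protein (encoded by Pthlh) in the resting and periarticular zones. That protein acts on Pth1r, a receptor that signals mainly through cyclic AMP and is shared with parathyroid hormone, and holds chondrocytes short of hypertrophy. Cells receive hedgehog through Ptch1, which restrains Smo until the ligand binds; Smo then acts on the Gli proteins. Gli1 and Gli2 mainly activate and Gli3 mainly represses. Ptch1, Gli1 and Hhip are themselves induced by hedgehog and are widely used as its readouts.

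Promoter sequence is shown for 3 of the members that differed in the comparisons below: the ligand, its receptor and the decoy. Of the 9 genes, 8 had RefSeq windows, 10 in all since Pth1r has several starts, and Gli1 had none. Each line gives the 250 bases before the RefSeq start, 5′ to 3′ on the gene's strand, in build GRCm38.p6; the Ihh window is chr1:74951673-74951922, that of Ptch1 is chr13:63565736-63565985 and that of Hhip is chr8:80058009-80058258, all on the minus strand.
Ihh: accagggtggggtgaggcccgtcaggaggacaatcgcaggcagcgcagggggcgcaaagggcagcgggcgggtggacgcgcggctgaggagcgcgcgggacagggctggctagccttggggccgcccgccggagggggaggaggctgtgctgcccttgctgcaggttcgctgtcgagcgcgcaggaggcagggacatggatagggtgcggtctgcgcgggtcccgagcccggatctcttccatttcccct
Ptch1: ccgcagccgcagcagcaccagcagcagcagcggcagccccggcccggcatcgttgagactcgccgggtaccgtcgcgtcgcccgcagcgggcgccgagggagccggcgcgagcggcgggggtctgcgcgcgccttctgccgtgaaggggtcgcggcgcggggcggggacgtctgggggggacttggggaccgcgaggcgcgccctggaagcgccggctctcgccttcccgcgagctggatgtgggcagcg
Hhip: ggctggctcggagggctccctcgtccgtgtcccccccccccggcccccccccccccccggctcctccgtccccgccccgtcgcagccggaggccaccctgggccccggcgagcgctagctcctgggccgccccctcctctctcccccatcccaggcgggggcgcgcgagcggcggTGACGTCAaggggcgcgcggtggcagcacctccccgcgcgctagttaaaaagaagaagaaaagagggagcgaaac
Capitals mark the cyclic AMP response element TGACGTCA, which reads the same on both strands. Among the members it was found in the Hhip window alone, its first base 75 bases before the start, and 1.55% of 32851 windows of this length hold it. The Gli site GACCACCCA, searched on both strands (TGGGTGGTC), was in none of the 10 windows and is in 0.225% of all windows. G and C made up 72% of the Ihh window, 78.4% of that of Ptch1 and 76% of that of Hhip. The GENCODE gene spans on GRCm38 are chr1:74945315-74951672 for Ihh, chr13:63508328-63573598 for Ptch1 and chr8:79965851-80058006 for Hhip, so the RefSeq start of Ptch1 lies inside its span.

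The libraries differed in size and quality. The control library held 8021 barcodes and 55250651 UMIs (unique molecular identifiers, each standing for a captured RNA molecule), PTH 5286 and 33981167, and YKL 1500 and 19424073. After filters 2901, 1911 and 593 cells were left, with medians of 11633, 12288 and 25669 UMIs, so YKL cells were read more deeply. In the PTH library 44.5% of barcodes were over the mitochondrial maximum, against 17.6% in control and 18.5% in YKL. At most 8 barcodes were shared by a pair of libraries. Chondrocytes numbered 1463, 734 and 413 in control, PTH and YKL, and 15 of their 15 fixed markers were detected. Cells named tendon numbered 219 in PTH and 1 in each other library. No osteoblast class could be named. An unnamed cluster led by Spp1, Wif1 and Ibsp held 140, 32 and 25 cells, a cycling cluster 57, 64 and 13, and a cluster with haemoglobin and cartilage genes 102, 14 and 2; these stay outside the chondrocyte class. Levels below are the UMIs of a gene summed over a class and scaled to counts per 1000000 UMIs (CPM). They come from a 3′ kit and are compared within a gene, not between genes. In such sums fewer expressing cells and less RNA per cell cannot be told apart.

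Pth1r RNA was concentrated in chondrocytes. Its level there was 985 CPM in control (95% Poisson interval 973 to 998), 1123 in PTH and 1736 in YKL. Among control classes of at least 200000 UMIs the next was pericytes or smooth muscle at 121 CPM, where 1 cell held 37 of the 78 UMIs, followed by fibroblasts or mesenchymal progenitors at 52.8 and Schwann or glial cells at 47.2. Neutrophils (41.0), macrophages (22.2) and endothelial cells (19.4) came last. The intervals of fibroblasts (40.3 to 67.9) and neutrophils (30.1 to 54.5) overlapped, as did those of macrophages and endothelial cells. Neutrophils are not known to use this receptor. Col2a1, the main collagen of cartilage, also stood at 1168 CPM among them, and the part of cartilage RNA in their Pth1r level was not tested.

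Its ligand Pthlh was almost absent from the same cells. Chondrocytes held 12 Pthlh UMIs in control, 7 in PTH and 0 in YKL, where 3 UMIs would be 0.233 CPM. Fibroblasts or mesenchymal progenitors, led by Mfap5, Pi16 and Clec3b, were the highest class for it in each library. They reached 86.2 CPM in control (70.0 to 105), with 98 UMIs in 31 of 111 cells, and 59.5 CPM in PTH, with 195 UMIs in 96 of 290 cells. The YKL value of 172 CPM comes from 18 cells, of which 1 held 30 of the 41 UMIs. Tendon cells of PTH had 10.6 CPM. Endothelial cells had 6.47 CPM in control and 11.1 in PTH, where 24 of the 26 UMIs lay in the small cluster led by Stmn2 and Cldn5. A single PTH endothelial cell held 14 of the 26. Pericytes and macrophages had 0 Pthlh UMIs in control and PTH alike.

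Ihh was a chondrocyte gene in all 3 libraries, at 175 CPM in control (169 to 180), 279 in PTH and 559 in YKL. Endothelial cells, which should lack it, had 3.24, 2.57 and 2.38 CPM. When each cell was thinned to 2000 UMIs, 14.7% of 1439 control chondrocytes had an Ihh UMI against 0.641% of 156 endothelial cells; without thinning 31.2% and 2.21% had one, with 16641 and 5209 UMIs in the median cell. Thinned shares were 22.4% of 719 chondrocytes in PTH and 40.3% of 400 in YKL. Pericytes stood at 66.5 CPM in control and 43.0 in PTH, but 1 cell held 40 of 43 and 18 of 20 UMIs. Macrophages of control were at 8.31 CPM and fibroblasts at 1.76, from 2 UMIs.

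The receiving side was spread over more classes. Ptch1 stood at 211 CPM in control chondrocytes, 61.6 in fibroblasts and 30.7 in endothelial cells, with intervals that did not overlap, and at 10.8 or less in pericytes, neutrophils and macrophages. In PTH it was instead higher in endothelial cells (67.2, 57.1 to 78.6), where 1 cell held 44 of 157 UMIs, than in fibroblasts (38.4, 32.0 to 45.8). In YKL fibroblasts, of which there were 18, it was 122 CPM, near the 120.5 of chondrocytes. Among control classes of at least 200000 UMIs, Smo was highest in fibroblasts at 53.7 CPM (41.0 to 68.9), above chondrocytes at 34.8 (32.5 to 37.2). Its interval in pericytes (18.9 to 47.8) overlapped both. Gli1 was 18.5 CPM in control fibroblasts (11.4 to 28.2) and 5.14 in chondrocytes (4.28 to 6.12). In PTH the fibroblast value was 17.7 and that of tendon cells 0.818, from 3 UMIs. Gli2 and Gli3 were likewise higher in control fibroblasts, at 8.80 and 18.5 CPM, than in chondrocytes at 3.71 and 11.0. The intervals overlapped narrowly for both genes, and the pericyte value of Gli3, 12.4, lay between. Hhip, which binds hedgehog and keeps it from the receptor, was 39.6 CPM in control fibroblasts and 2.45 in chondrocytes. In PTH the values were 5.49 and 7.73 CPM, with intervals that overlapped. Endothelial cells and pericytes had 0 Hhip UMIs in control, where 3 UMIs would be 2.43 and 4.64 CPM. In the plot by cell class the ligand Ihh and the receptor Pth1r share chondrocytes as their highest class, while Smo and the Gli genes are highest in fibroblasts in control.

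**Figure D1:**
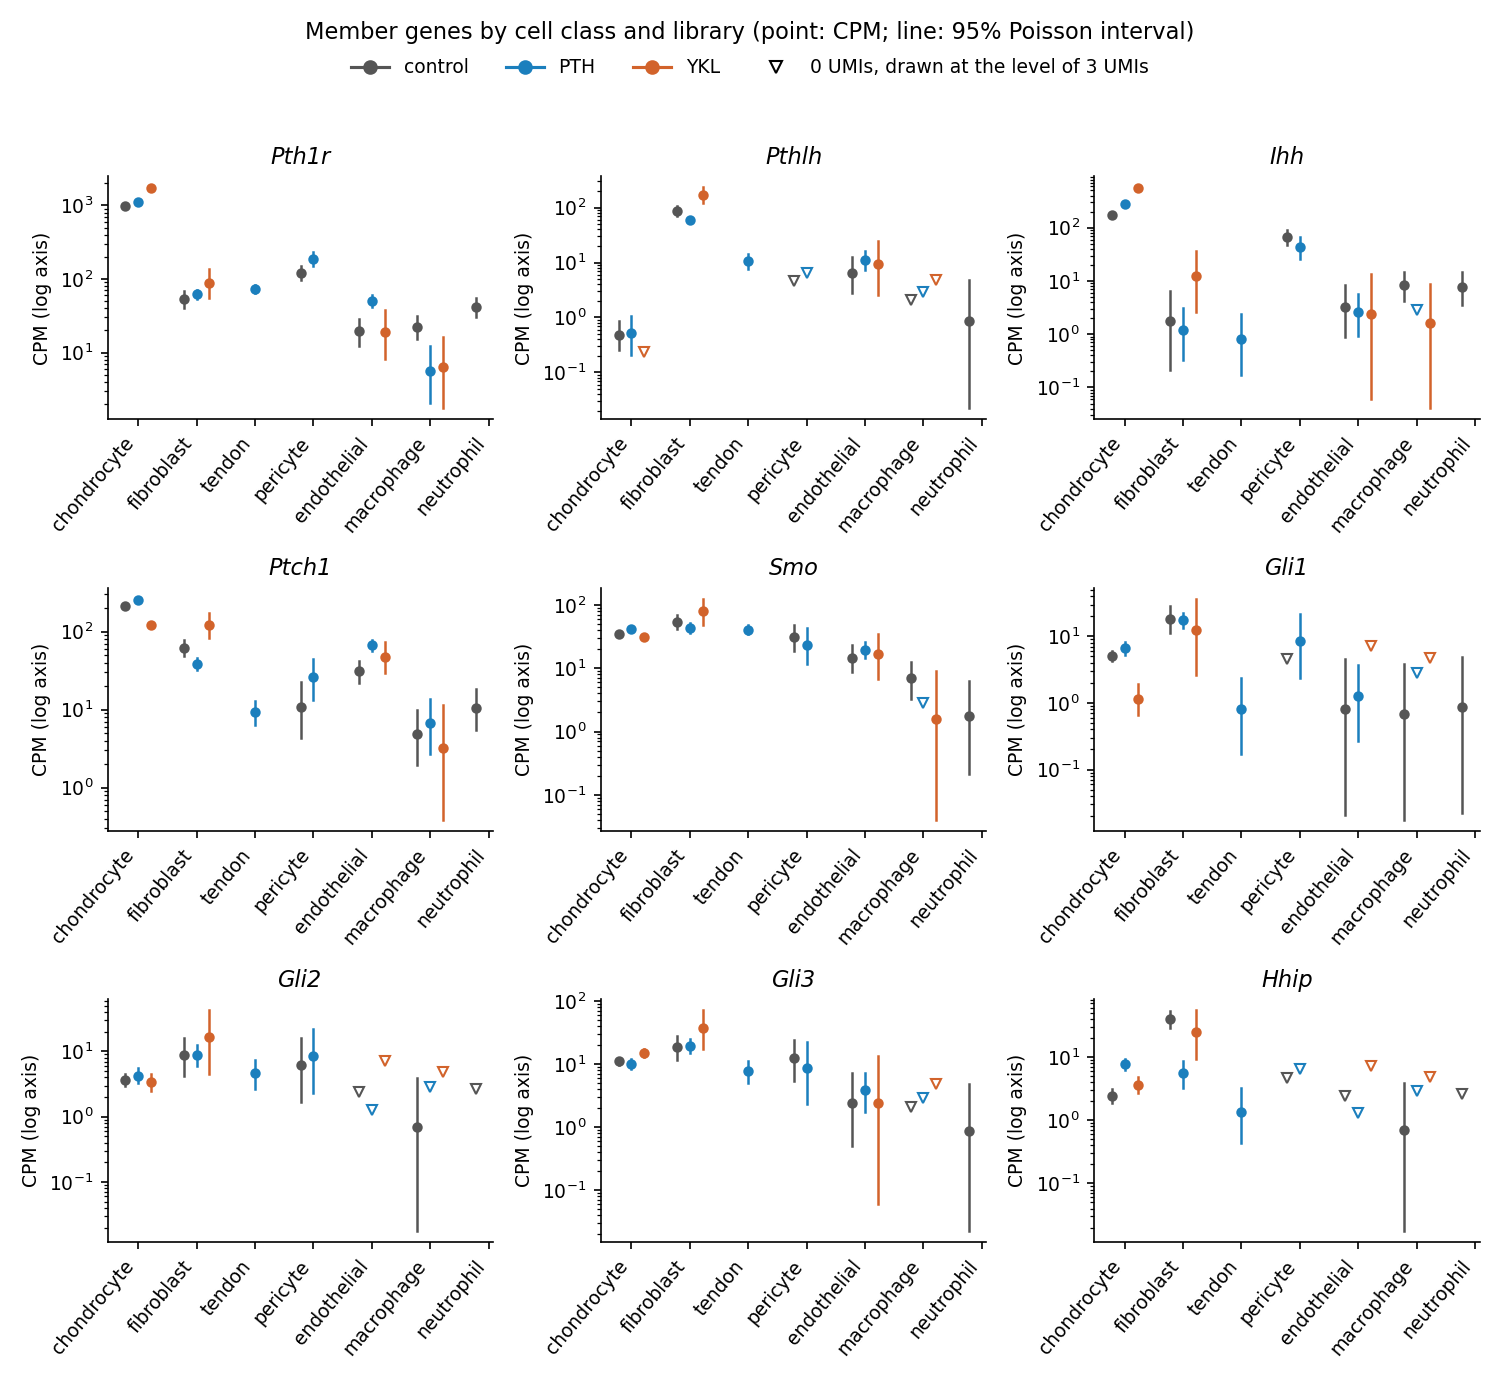
Summed level of each member gene (CPM, log axis) in 7 cell classes of the control (grey), PTH (blue) and YKL (orange) libraries, for classes of at least 200000 UMIs in a library; vertical lines are 95% Poisson intervals and open triangles mark 0 UMIs at the level of 3. Pth1r and Ihh are highest in chondrocytes, at 985 and 175 CPM in control, and Pthlh is highest in fibroblasts, at 86.2 CPM in control.

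Chondrocytes were then ordered by the share of Col10a1, the collagen of hypertrophic cartilage, in their Col10a1 and Col2a1 UMIs. The stages were under 1%, 1 to 5%, 5 to 20%, 20 to 50% and 50% or more. The control library had 1000, 176, 87, 77 and 75 cells in them, PTH 453, 96, 61, 59 and 19, and YKL 122, 79, 74, 57 and 59. A further 48, 46 and 22 chondrocytes had under 50 such UMIs and were not staged. The lowest stage held 70.7% of staged control chondrocytes (68.2 to 73.0%, exact interval), 65.8% of PTH and 31.2% of YKL (26.6 to 36.1%). The highest held 5.30%, 2.76% and 15.1%. More of the YKL cells thus lay high in the order. Comparisons of the members between libraries are given below both for all chondrocytes and at equal stage. Those of the other gene lists are given for all chondrocytes only.

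**Figure D2:**
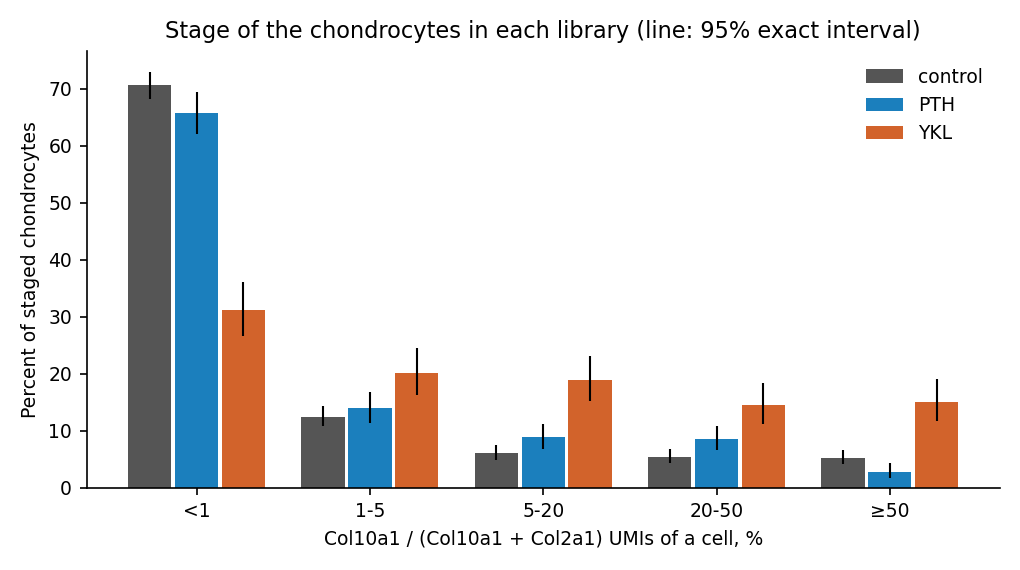
Percent of staged chondrocytes (vertical axis, from 0) in each stage of the Col10a1 share of Col10a1 and Col2a1 UMIs (horizontal axis) for control, PTH and YKL; black lines are exact 95% binomial intervals. The lowest stage holds 70.7%, 65.8% and 31.2% of the cells.

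Along this order Ihh climbed through every stage of the control library, from 31.2 CPM through 170.05, 425 and 885 to 1417, a ratio of 45.4 between the ends. The PTH values were 69.4, 333, 908, 1018 and 1235 CPM. YKL started higher, at 188 CPM, and went through 301, 496 and 1269.5 to 1308, a ratio of 6.96 between its ends. The 3 libraries were near each other at the top and far apart at the bottom of the order.

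Pth1r went up earlier and came down at the end. In control it was 682, 1233, 2108, 2601 and 1997 CPM, with its peak in the 20 to 50% stage and a last interval (1913 to 2085) clear of that peak (2511 to 2693). In YKL it was 1465, 1619, 2163, 2209 and 1622 CPM, so that its ends differed by a ratio of 1.11. In PTH it was 792, 1396, 2019, 2085 and 2184 CPM, with no drop seen in the 19 cells of the last stage.

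The receptor Ptch1 ran the other way. It was 240.4, 202, 83.7, 67.3 and 29.6 CPM in control, 315, 183, 81.8, 51.4 and 27.7 in PTH, and 199.9, 120.2, 91.0, 41.7 and 23.5 in YKL. The level of the highest stage was thus 0.123, 0.088 and 0.118 of that of the lowest. Gli1 was 6.18 CPM in the lowest control stage, from 107 UMIs, and 1.91 in the highest, from 2. Gli3 was 11.0 CPM in the lowest control stage and 4.77 in the highest, from 5 UMIs. In YKL it stayed between 14.2 and 17.6 CPM over the lower 4 stages and was 3.18 in the highest. Smo changed little, from 35.7 to 24.8 CPM in control, a ratio of 0.695 with an interval of 0.45 to 1.03. Hhip UMIs lay in the lower stages: 34 of the 36 in staged control cells and 42 of the 43 in YKL were in the lowest. In PTH the 5 stages held 57, 28, 7, 1 and 0. The 28 lay in 6 of 96 cells and the 7 in 2 of 61, so their reach up the order there rests on few cells. All control chondrocytes held 60 Hhip UMIs, those beyond the 36 in unstaged cells.

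A member was called higher or lower where its ratio was at least 1.5-fold with at least 50 UMIs over both groups, and every gene of the matrices was read by the same rule. A gene at 0 UMIs in a group was held at 3 UMIs there. Between the ends of the order 6 of 7 members that met the UMI minimum were called in control, where 47.6% of all 10005 such genes were. Ihh and Pth1r were higher, and Ptch1, Gli1, Gli2 and Gli3 lower. The 3 Gli genes had at most 5 UMIs at the top, and the intervals of their ratios reached past 1. In PTH 3 of 7 were called (Pth1r, Ihh and Ptch1) against 53.3% of all genes. Gli1, Gli3 and Hhip had 0 UMIs in its last stage, which has 19 cells, and 68, 96 and 57 in the lowest; with the zeros held at 3 they were not called. In the same library, with the 20 to 50% stage as the upper end 6 of 7 were called against 38.9%. In YKL 4 of 5 were called (Ihh higher; Ptch1, Smo and Gli3 lower) against 47.7%. The plot along the order shows Ihh and Ptch1 crossing it in opposite directions in each library.

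**Figure D3:**
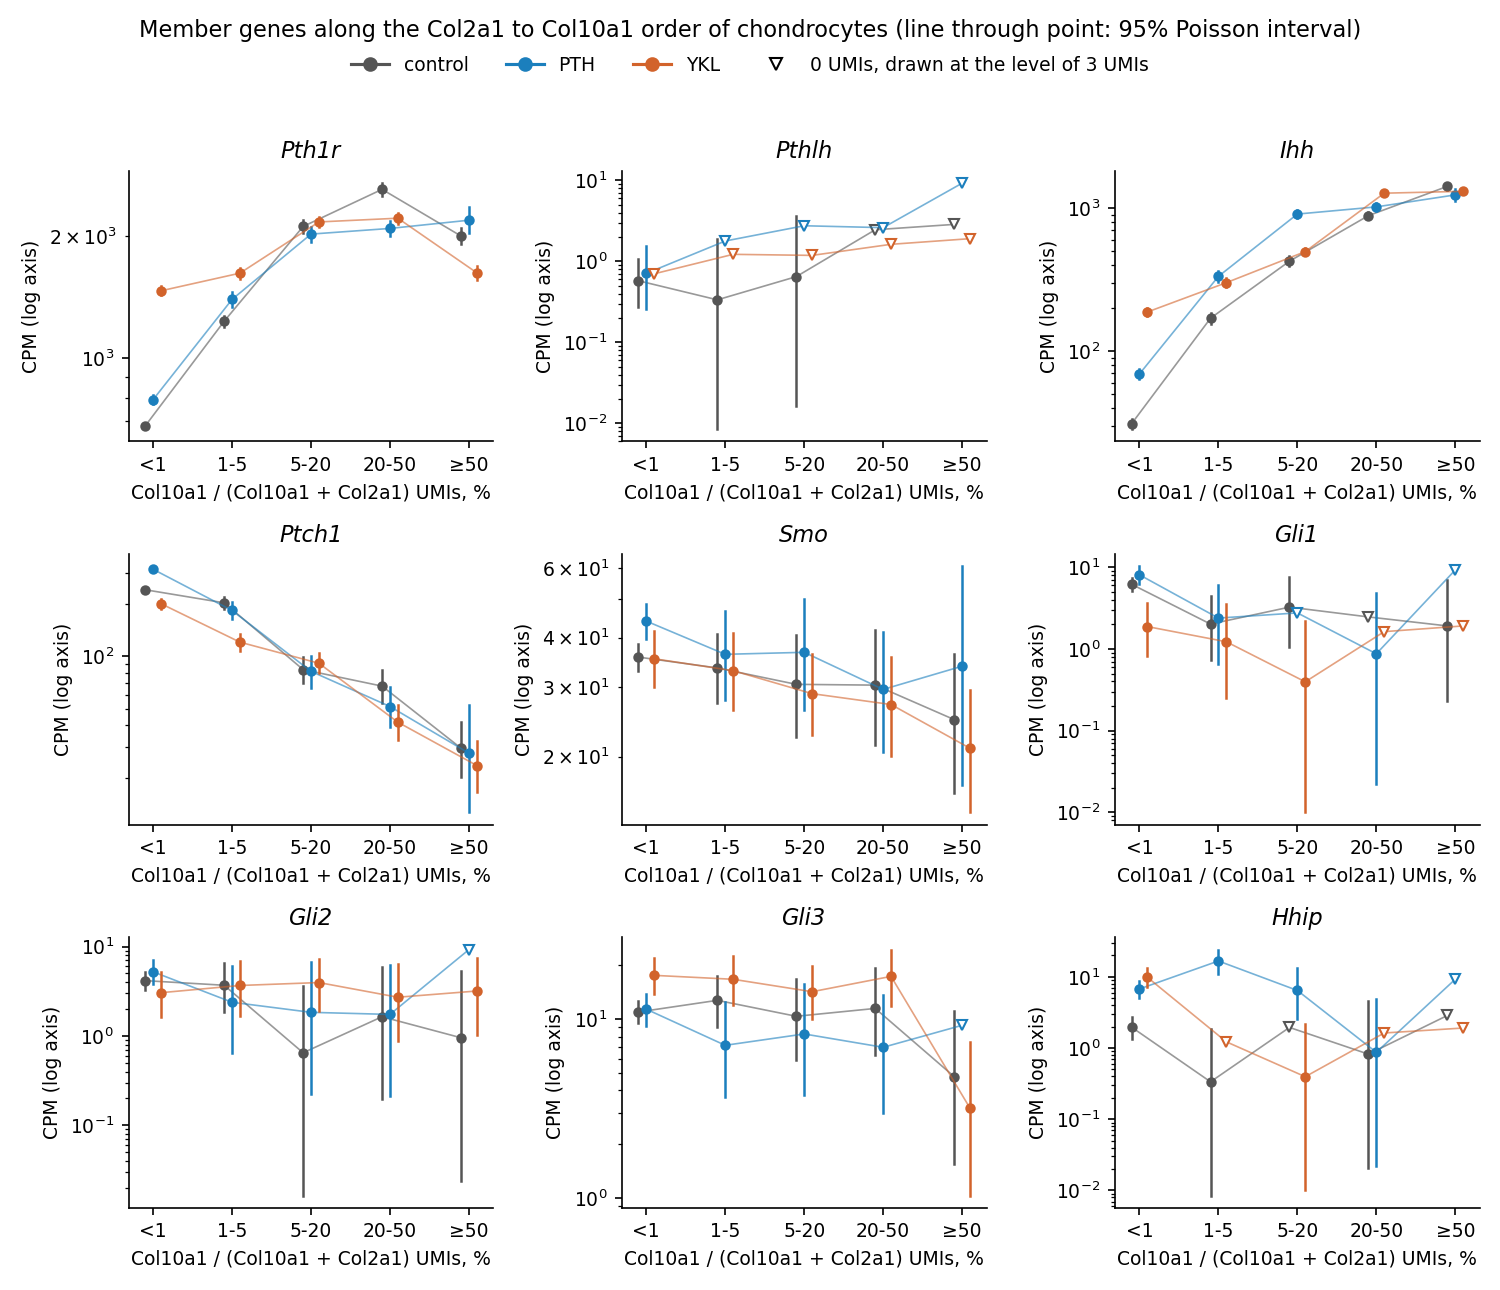
Level of each member gene (CPM, log axis) in the 5 stages of the Col10a1 share (horizontal axis, percent) in control (grey), PTH (blue) and YKL (orange) chondrocytes; vertical lines are 95% Poisson intervals, and open triangles mark 0 UMIs at the level of 3. Ihh goes from 31.2 to 1417 CPM and Ptch1 from 240.4 to 29.6 CPM in control.

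Set against vehicle, YKL chondrocytes held more RNA for the ligand and for the PTH receptor and less for the hedgehog receptor and its readout. The Ihh level of 559 CPM was 3.20 times that of control (3.08 to 3.33), and that of Pth1r, 1736 CPM, was 1.76 times (1.73 to 1.79). Ptch1, at 120.5 CPM, was 0.571 of control (0.539 to 0.605). Gli1, at 1.16 CPM from 15 UMIs, was 0.227 of control (0.123 to 0.388). Of 8 members that met the UMI minimum, 2 were called higher, where 10.1% of all genes were, and 2 lower, where 8.11% were. The other 4 were within 1.5-fold: Hhip at a ratio of 1.49, Gli3 at 1.38, Gli2 at 0.921 and Smo at 0.893. The Hhip ratio has no settled direction: over 14 alternative settings it ran from 0.268 at clustering resolution 0.5 to 3.62 with the unnamed cartilage clusters added. With 2-fold as the limit 2 members were called, Ihh and Gli1. The median log2 ratio of the 8 members was 0.17, beside -0.01 over all genes.

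Much of the YKL difference was smaller at equal stage. With the 5 stages weighted equally, Ihh stood at 713 against 586 CPM, a ratio of 1.22 (1.17 to 1.27), and Pth1r at a ratio of 1.05 (1.03 to 1.08). Ptch1 was at 0.764 (0.712 to 0.821). Gli1 was at 0.262 (0.134 to 0.513), and Hhip was at 3.28 (1.68 to 6.40). These last 2 were the members called, against 12% of all genes called in either direction, genes at 0 UMIs in a single library included. For Gli1 this rests on 12 YKL UMIs, and for Hhip on 43, of which 42 lay in 10 cells of the lowest stage. On the control side it used 36 of the 60 Hhip UMIs, since unstaged cells were left out.

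Equal weights hide a difference that sits in the lowest stage. There YKL had 6.03 times the Ihh of control (5.40 to 6.74), 2.15 times the Pth1r (2.08 to 2.21) and 5.02 times the Hhip. Gli3 was also called higher, at 17.6 against 11.0 CPM, where 8.51% of all genes were. Gli1 was called lower, at 1.87 CPM from 8 UMIs against 6.18 in control, where 9.6% of all genes were. In the 1 to 5% stage the Ihh ratio was 1.77, in the next 1.17, then 1.43 and 0.924 in the highest. Mean Col10a1 was itself 135 CPM in YKL and 64.3 in control within the lowest stage, so that stage was split further, a step chosen after the values were seen. Cells with a share under 0.1% had 26.1 CPM of Ihh in control (487 cells), 29.5 in PTH (293 cells) and 116 in YKL, from 22 cells of which 1 held 36 of 80 UMIs. From 0.1 to 0.3% the values were 30.9, 80.7 and 178 CPM, and from 0.3 to 1% they were 40.3, 175 and 218. PTH was thus close to control in the first bin and above it in the others. Those bins held 67 and 93 PTH cells, and 1 cell in each held 31 of 119 and 42 of 315 Ihh UMIs. Pth1r in the same 3 bins was 647, 698 and 728 CPM in control and 1326, 1423 and 1539 in YKL. The YKL values were above those of control in each bin for both genes. YKL cells of the lowest stage were deeper, at a median of 31511 against 17100 UMIs. Thinned to 2000 UMIs, 20.7% of 121 YKL cells had an Ihh UMI, against 4.54% of 992 in control and 7.98% of 451 in PTH, and before thinning 56.6%, 15.5% and 22.1%.

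PTH chondrocytes differed from control in the ligand and in the decoy. Ihh was 1.60 times control (1.53 to 1.67), and Hhip, at 7.73 against 2.45 CPM, was 3.16 times (2.28 to 4.42). These were the 2 members of 8 called higher, where 7.09% of all genes were; none was called lower, where 3.09% were. Over the 14 alternatives Ihh ran from 1.51 to 2.06 and Hhip from 1.77 to 6.505. A single member was called with a mitochondrial maximum of 5%, with marked doublets kept, at resolution 0.5 and after thinning. Ptch1 was at a ratio of 1.21 (1.15 to 1.26), Pth1r at 1.14 (1.12 to 1.16), Smo at 1.18 and Gli1 at 1.28 (0.967 to 1.70). At equal stage over the 4 stages with at least 20 cells in both libraries, Ihh was at 1.54 (1.46 to 1.63) and Hhip at 9.85 (5.13 to 18.9), against 12.7% of all genes called in either direction. This Hhip ratio used 36 of the 60 control UMIs and 93 of the 103 PTH UMIs, since unstaged cells were left out. The Ihh ratio was 2.23 in the lowest stage, 1.96 and 2.13 in the next ones and 1.15 in the 20 to 50% stage. In the 5 to 20% stage 1 of the 61 PTH cells held 193 of the 988 Ihh UMIs. The Ihh ratio at equal stage, close to the 1.5-fold limit, was not recomputed without that cell, so its call may rest on it. Hhip UMIs were 57 against 34 in the lowest stage. In the 1 to 5% stage they were 28, of which 11 lay in 1 cell, against 1.

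Between YKL and PTH chondrocytes, which share no library, 6 of the 8 members were called. Pth1r (1.55), Ihh (2.01) and Gli3 (1.51) were called higher in YKL, where 6.4% of all genes were. Ptch1 (0.474), Gli1 (0.176) and Hhip (0.472) were called lower, where 7.88% were. The count was 2 at resolution 0.5, and 3 with marked doublets kept, after thinning to 2000 UMIs or without the cluster richest in Col1a1. Gli3 was at 0.625 after thinning, and Hhip at 1.10 with the unnamed cartilage clusters added. At equal stage Ihh was at 0.968 (0.924 to 1.01) and Pth1r at 1.19. Gli3 was at 1.95, Gli1 at 0.309 and Hhip at 0.333, the 3 members called against 11.3% of all genes. The ratios of YKL and of PTH to control share the control library and are set side by side in the plot of ratios for that reason only.

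**Figure D4:**
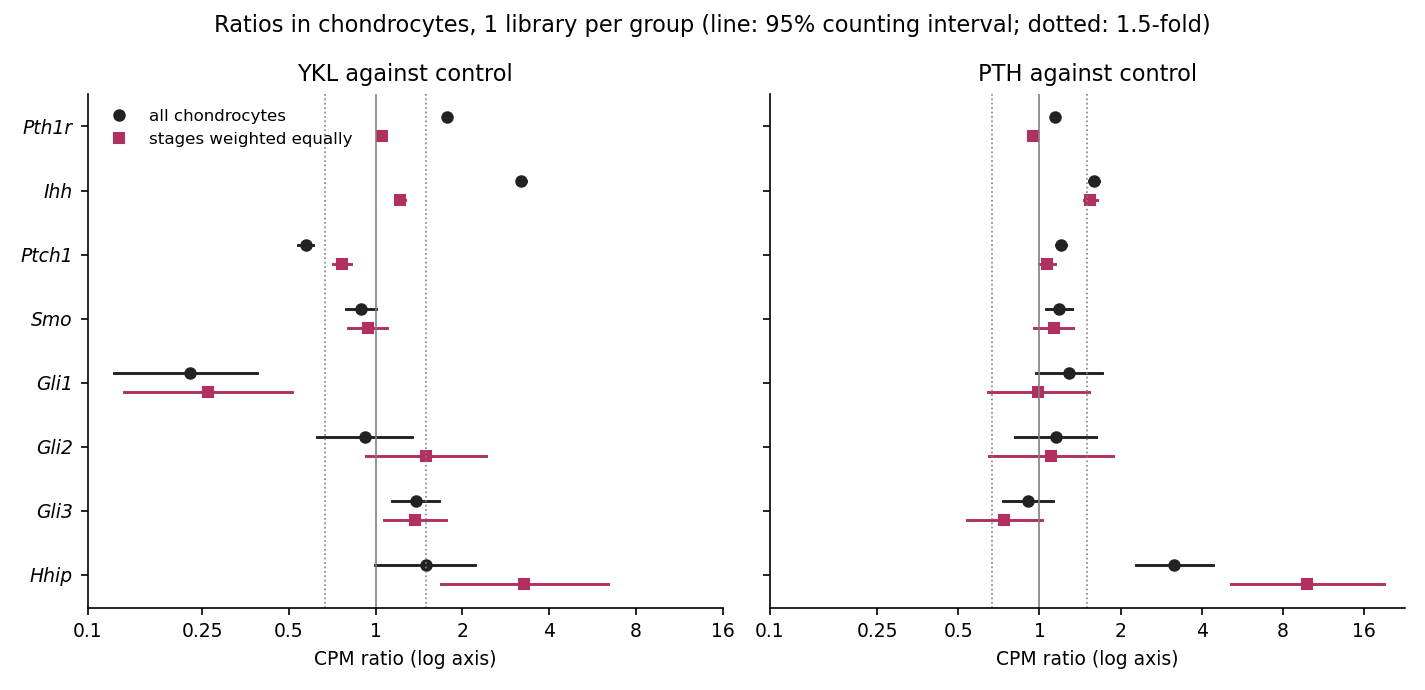
Ratio of member levels (log axis) in chondrocytes of YKL (left) and PTH (right) to control, over all chondrocytes (black circles) and with stages weighted equally (red squares); horizontal lines are 95% counting intervals and dotted lines mark 1.5-fold. In YKL the Ihh ratio is 3.20 over all chondrocytes and 1.22 at equal stage, while that of Gli1 is 0.227 and 0.262; Pthlh, with too few UMIs, is not drawn.

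Hhip lay for the most part in a cluster of chondrocytes with high Col1a1, the main collagen of bone and fibrous tissue. It held 106 control, 165 PTH and 51 YKL cells, with 12827, 18244 and 16305 CPM of Col1a1, so it made up 7.25%, 22.5% and 12.3% of the chondrocytes. Within it Hhip was 24.6 CPM in control, 29.98 in PTH and 21.4 in YKL, from 37, 81 and 44 UMIs of the 60, 103 and 47 in all chondrocytes. The PTH ratio to control inside the cluster was 1.22 (0.815 to 1.85). Without the cluster, a step added after the data were seen, Hhip no longer met the UMI minimum in that comparison, and 1 member, Ihh, was called in place of 2. Gli1 in the cluster was 15.98, 17.0 and 5.34 CPM, from 24 of the 126, 46 of the 88 and 11 of the 15 UMIs of all chondrocytes, and the YKL value was 0.334 of control (0.148 to 0.709). Ptch1 in it was 371, 370.5 and 274 CPM. Ihh was 30.6 and 29.6 CPM in control and PTH and 122 in YKL, a ratio of 3.996 to control (2.91 to 5.60). This cluster expresses Col2a1 at 22076, 15699 and 37383 CPM and Ibsp, a bone sialoprotein, at 6896, 10993 and 1874, so PTH and YKL cells in it were not alike in matrix genes.

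The other chondrocyte clusters separated the sending from the receiving side. The one led by Col10a1 had Ihh at 1308, 1158 and 1304 CPM in control, PTH and YKL, and Ptch1 at 34.8, 39.7 and 22.4. The one led by Ibsp and Pcolce2 had the most Pth1r, 2296, 2503 and 2357 CPM, with Ihh at 445, 614 and 533. The cluster led by Col9a3, Omd and Matn3, with the least Col10a1 (102 CPM in control), had Ptch1 at 274 CPM in control and 361 in PTH with Ihh at 19.5 and 9.83. Across the 16 sums of a chondrocyte cluster in a library, Pearson's r of log2(CPM + 10) was -0.869 for Ihh and Ptch1, 0.854 for Ihh and Pth1r, 0.863 for Ptch1 and Smo and 0.827 for Gli1 and Hhip. The sums share libraries and were clustered on expression, so these are descriptions. The Col10a1-led cluster held 7.997% of control, 14.0% of PTH and 27.6% of YKL chondrocytes, and the one led by Ucma 27.9%, 18.1% and 3.87%. Ihh thus marks one end and Ptch1 the other in the plot of clusters.

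The cartilage-like clusters outside the chondrocyte class differed among themselves. The unnamed cluster led by Spp1, Wif1 and Ibsp, in which osteoblast lineage markers were the best match, had Ptch1 at 346 CPM in control, 296 in PTH and 441 in YKL. Its Pth1r was 523, 419.7 and 623 CPM, below the chondrocyte levels of each library, and its Ihh was 1.56 CPM in control from 2 UMIs. In YKL 1 of its 25 cells held 53 of 59 Hhip UMIs and in PTH 1 cell held 12 of 15 Pthlh UMIs. The cycling cluster had Ptch1 at 246 CPM in control and 232 in PTH and Ihh at 27.1 and 11.3, the latter from 1 cell. The cluster with haemoglobin and cartilage genes had Ihh at 224 CPM and Ptch1 at 157 in its 102 control cells, and its Col10a1 was 3041 CPM.

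**Figure D5:**
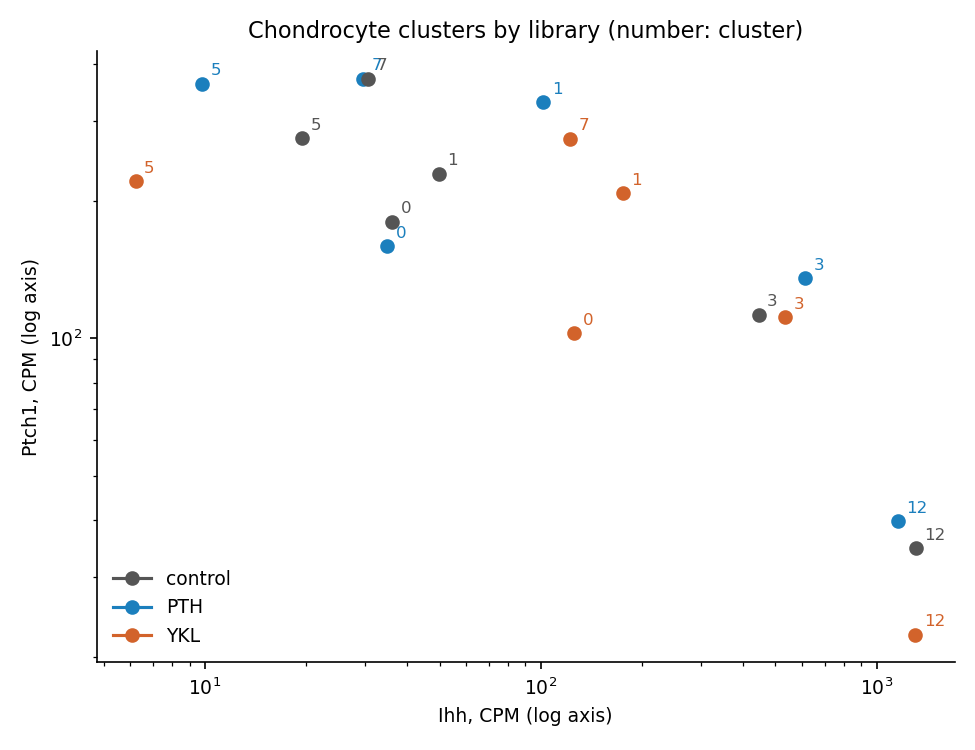
Ihh against Ptch1 (CPM, log axes) in each chondrocyte cluster (number beside the point) of control, PTH and YKL; the YKL points of clusters 1 and 5 hold 16 and 10 cells, all others more than 20. Cluster 12, led by Col10a1, lies at 1308 CPM of Ihh and 34.8 of Ptch1 in control; cluster 7, with the highest Col1a1, at 30.6 and 371.

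Most chondrocytes with an Ihh UMI also had Pth1r, as did most without one in the same range of the order. Among chondrocytes with a Col10a1 share of 5 to 50%, thinned to 2000 UMIs, 82 of 88 control cells with an Ihh UMI also had Pth1r (93.2%, exact interval 85.7 to 97.5%), as did 75 of 80 in PTH and 67 of 71 in YKL. Cells without an Ihh UMI had Pth1r in 87.5%, 72.2% and 86.0%. The intervals of cells with and without Ihh overlapped in control and YKL. In PTH they were narrowly apart, at 86.0 to 97.9% and 54.8 to 85.8%. Ptch1 was seen in 11 of 88 control cells with Ihh (12.5%, 6.41 to 21.3%) and in 12 of 72 without (16.7%). The counts were 9 of 80 and 5 of 36 in PTH, and 7 of 71 and 12 of 57 in YKL, with intervals that overlapped in each library. At this depth no difference in Ptch1 between cells with and without Ihh of the same stage was detectable.

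Genes that release or bind hedgehog differed in both directions. These genes and the lists that follow were compared over all chondrocytes and not at equal stage. The part of the different mix of stages in their ratios was not tested. Of 13 such genes 10 met the UMI minimum in chondrocytes. In YKL against control 3 were called higher and 3 lower, where 10.1% and 8.11% of all genes were, with a median log2 ratio of -0.03 beside -0.01 over all genes. Scube3, of a family of secreted proteins that help release the ligand, was at a ratio of 5.55 (4.75 to 6.51), and Disp1, which exports it from producing cells, at 2.12. Scube2 was at 0.225 and the co-receptor Gas1 at 0.390. In PTH against control 2 were called higher, where 7.09% of all genes were: Scube3 at 2.09 and the co-receptor Boc at 1.98. Another 2 were lower, where 3.09% were: Gas1 at 0.499 and Gpc3, a glypican that binds hedgehog, at 0.320. The median was 0.22 beside 0.01.

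Genes described as hedgehog targets gave different counts in the treatments. In PTH 4 of the 9 with enough UMIs were called higher than control and none lower: the transcription factor Osr2 at 4.46 (3.20 to 6.28), Foxd1 at 3.02, the D-type cyclin Ccnd1 at 2.31 and Igfbp3, which binds insulin-like growth factors, at 2.04. Of all genes 7.09% were called higher and 3.09% lower. The list's median log2 ratio was 0.25, beside 0.01 over all genes. In YKL 1 of 8 was called higher, Foxc1 at 1.51, and 3 lower, among them Igfbp3 at 0.395, Hsd11b1 at 0.056 (2 UMIs) and the cyclin Ccnd2 at 0.628. The shares of all genes were 10.1% and 8.11%, and the median was -0.28 beside -0.01. In YKL against PTH 4 of 8 were called lower (Osr2 0.205, Igfbp3 0.194, Ccnd1 0.345, Foxd1 0.606) and none higher, where 7.88% and 6.4% of all genes were. Their median was -0.53 beside -0.02. Many of these genes have other regulators.

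Among the other parts of the pathway, 1 of 15 hedgehog transduction genes was called in YKL against control, the kinase gene Gsk3b at 1.66, and none of 15 in PTH. The shares of all genes called higher and lower were 10.1% and 8.11% in YKL and 7.09% and 3.09% in PTH, for these and the next lists. Of 24 genes of PTH receptor ligands and coupling, 5 of 19 with enough UMIs were called higher in PTH and none lower, with a median log2 ratio of 0.26 beside 0.01 over all genes. They include Rgs2, a brake on G protein signals, at 1.80 (1.33 to 2.43), the cyclic AMP phosphodiesterases Pde3a at 1.59 and Pde4b at 1.56, and Arrb1, an arrestin, at 1.59. In YKL 1 of 18 was called higher, Pde4b at 1.80, and 2 lower, Plcb1 at 0.534 and the adenylyl cyclase Adcy3 at 0.557. Of the stage genes of cartilage 9 of 16 were called higher in YKL, led by the protease gene Mmp13 at 3.37, Col10a1 at 2.87 and the phosphatase gene Alpl at 2.25, and 2 lower, with Ucma of young cartilage at 0.130. Their median was 0.76 beside -0.01. In PTH 3 of 16 were called higher and none lower, and Col10a1 was at 0.968.

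Outside cartilage PTH and control could be compared in classes of at least 50 cells. In fibroblasts Hhip was 5.49 CPM in PTH, from 18 UMIs in 8 of 290 cells, and 39.6 in control, from 45 UMIs in 17 of 111 cells, a ratio of 0.139 (0.0756 to 0.244). Ptch1 was 38.4 against 61.6 CPM, a ratio of 0.624 (0.462 to 0.848). These 2 of the 7 members with enough UMIs were called lower, where 7.21% of all genes were, and none was called higher, where 9.83% were. Gli1 was at a ratio of 0.958 (0.573 to 1.66), Pthlh at 0.690 (0.539 to 0.889) and Pth1r at 1.18. The fibroblast class held 290 PTH cells, 15.2% of the library, against 111 in control, 3.83%.

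In endothelial cells Pth1r was 50.1 CPM in PTH and 19.4 in control, a ratio of 2.58 (1.65 to 4.18), and Ptch1 67.2 against 30.7, a ratio of 2.19 (1.52 to 3.20), where 10.1% of all genes were called higher. In PTH 1 cell held 41 of the 117 Pth1r UMIs and 1 cell 44 of the 157 Ptch1 UMIs. Cartilage and bone RNA was also higher there, Col2a1 at 1539 against 850 CPM and Col1a1 at 993 against 203, and its part in the result was not tested. YKL endothelial cells had Pth1r at 19.0 CPM, from 8 UMIs, and Ptch1 at 47.5, from 20. Pericytes had Pth1r at 189 CPM in PTH and 121 in control, a ratio of 1.57 where 11.4% of all genes were called higher, with 37 UMIs in 1 cell of each library. Their Ihh, given above and mostly from 1 cell per library, was called lower, where 4.12% of all genes were. Their Col2a1 was 3105 against 1408 CPM. Macrophages had too few UMIs of each member for a ratio.

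The genes most like 3 of the members were sought over 45 sums of a cluster in a library, of at least 20 cells each, by Pearson's r of log2(CPM + 10). For Ihh they were Col10a1 (0.917), Wnk4 (0.907) and Agt (0.894). For Pth1r they were Alpl (0.950), Pcolce2 (0.948) and Smpd3 (0.935), and for Ptch1 Lpar4 (0.880), Fgfrl1 (0.879) and Raph1 (0.871). Within the 16 chondrocyte sums alone Col10a1 kept an r of 0.973 with Ihh and Lpar4 one of 0.916 with Ptch1, while that of Smpd3 with Pth1r was 0.637. The sums share libraries and differ in depth.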

How the data were processed

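Callus cells were freed with collagenase and their 3′ libraries made on the 10x Chromium v3 kit, per the labels' protocols. The authors deposited unnormalized UMI counts of each gene in each barcode; per the file headers, Cell Ranger 4.0.0 made them. The submitters' processing notes also name Seurat and mm10. No barcode had fewer than 500 UMIs.

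A cell needed 500 genes and a mitochondrial share of 10% or less, and barcodes marked by Scrublet were removed (43 of 2944 control, 2 of 1913 PTH, 13 of 606 YKL). The PTH share is so low that most doublets there are taken to remain. With scanpy 1.11.5, 2000 variable genes, 30 components and 15 neighbours gave 23 Leiden clusters at resolution 0.8, named from marker lists of 17 classes. The naming rule was settled after the clusters were seen: at least 3 markers, a marker among the 10 leading genes, no larger share of another class's markers, and at most 10% haemoglobin. Ratios of summed CPM have exact conditional binomial 95% intervals, which cover counting error only; at equal stage the interval is an approximation from Poisson errors. The ratio script recovered known folds on counts simulated as independent Poisson draws. Such draws leave out UMIs gathered in single cells, so they do not check the intervals for these data. The members and gene lists were chosen with earlier results of these data known. All members are named; other lists are named by at most 4 called genes each, those whose interval lies farthest from 1, and similar genes by the 3 highest correlations.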

Additional observations from a re-analysis of the deposited data

Results flagged for a closer look

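Some members had ratios on opposite sides of 1 in different cell classes of the same comparison. None of these differences was tested, since each group is 1 library.

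Hhip in PTH against control was at 3.16 in chondrocytes and 0.139 in fibroblasts or mesenchymal progenitors. Ihh in PTH against control was at 1.60 in chondrocytes and 0.646 in pericytes, the latter from 1 cell in each library that held 40 of 43 and 18 of 20 UMIs. Ptch1 in PTH against control was at 2.19 in endothelial cells and 0.624 in fibroblasts. Ptch1 in YKL against control was at 1.55 in endothelial cells (0.852 to 2.72) and 0.571 in chondrocytes. Pth1r in YKL against PTH was at 1.55 in chondrocytes and 0.380 in endothelial cells, where YKL had 8 UMIs and 1 PTH cell held 41 of 117.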

How the results depend on the processing

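No paired analysis was possible because each group is 1 library and the groups share only 1 replicate number. Of 89 counts of members recomputed under the alternatives, 67 were within 1.5 times the reported count and 22 were not; the cause was not tested except where fewer UMIs or another fold limit set it. At 2-fold, the count was 2 in YKL against control (4 at 1.5-fold), 1 in PTH against control (2), also at equal stage, and 3 in the other classes (6); with the limit at 5/4 it was 5 in YKL against control at equal stage (2). In PTH against control 1 member was called with a mitochondrial maximum of 5%, with marked doublets kept, at resolution 0.5, with cells thinned to 2000 UMIs and without the Col1a1-rich cluster. In YKL against PTH (6) the count was 3 with marked doublets kept, 2 at resolution 0.5, 3 after thinning and 3 without that cluster. At equal stage 1 member was called after thinning in either treatment, and in PTH 1 also with a mitochondrial maximum of 5%, with stage limits of 2, 10 and 30%, and with a stage from Ibsp, Alpl and Spp1 against Ucma, Cnmd and Matn3. Between the ends of the order that other stage gave 2 in control (6), the other limits 6 in PTH (3) and thinning 2 in YKL (4). Keeping marked doublets redrew the clusters and left 1148, 428 and 249 chondrocytes. Of 336 ratios of single members, 233 were the same, 101 moved and 2 reversed, both in YKL against PTH: Gli3 was at 0.625 after thinning and Hhip at 1.10 with the unnamed cartilage clusters added, an alternative chosen after seeing the data, in which 1 YKL cell held 53 Hhip UMIs. The ratio of YKL to control stayed above 1.5 for Ihh (3.02 to 4.19) and Pth1r (1.68 to 2.25) and below 1 for Ptch1 (0.382 to 0.613) and Gli1 (0.0265 to 0.327) in all 14 alternatives. That of Hhip ran from 0.268 to 3.62 and so took both directions. None of the 14 was at equal stage. There the ratios of Ihh (1.22), Pth1r (1.05) and Ptch1 (0.764) were not called, while that of Gli1 (0.262) was.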
